A study of Rattus norvegicus with 59 samples.

Results

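One day after a single injection, the effects of Cd and Cr on rat liver differed for 428 of 10101 genes tested. The comparison described here is the Cd effect (Cd exposed minus Cd control, log2) minus the Cr effect (Cr exposed minus Cr control, log2), called the difference below. It rests on the 19 arrays of day 1, chosen by their labels out of 59 in the series. Male Sprague-Dawley rats, whose age is not given in the sources used here, received CdCl2 at 1.25 mg/kg (4 livers, numbered 1, 2, 4 and 5) or Na2Cr2O7 at 20 mg/kg (5 livers) intraperitoneally. The Cr dose is that of the labels, and the study's methods name a lower one for the arrays in 1 place. Each metal had its own sterile saline control group of 5 livers. RNA from whole liver was hybridised to Affymetrix Rat Genome arrays, on which each transcript is read by a probe set, and values are log2 signals after robust multi-array averaging. Another Cd exposed liver of day 1 was left out by the study because it clustered with the controls and had not accumulated Cd, so the Cd exposed group was in part selected on expression. Each metal was given at 1 dose on these arrays and the doses differ, so what is compared is a pair of exposures and not the metals at matched dose or toxicity.

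The liver is where absorbed metals collect. Cd is held there by metallothioneins, small cysteine-rich proteins whose transcription metals switch on, and it is known for acute injury to hepatocytes and to the sinusoidal cells between them. Hexavalent Cr enters cells as chromate and is reduced inside them to forms that bind DNA, and DNA damage of that kind is known to activate p53. The sinusoids hold Kupffer cells, the resident macrophages of liver, which clear particles and dying cells from portal blood.

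The gap between 3′ and 5′ probes of beta-actin, a sign of RNA quality, ranged from 1.62 to 2.51 (log2) over the 19 arrays, with means of 2.0 in the Cd controls, 1.99 in the Cd exposed, 2.16 in the Cr controls and 1.87 in the Cr exposed livers. For GAPDH the means were 0.47, 0.45, 0.57 and 0.35 in that order. On both the Cr exposed livers had the lowest mean and their controls the highest, and the part of this in the results was not tested. The 2 control groups differed at 4 of 17293 probe sets (0.0231%), and values of this control difference are given beside several of the genes where it was large. The hepatocyte markers were bright in every liver, with mean log2 signals from 13.64 to 13.9 over the 19 arrays. The exposed livers did not respond alike. For each exposed liver, the slope of its deviations on those of the other arrays of its group was taken as the size of the response. It was 0.65 to 1.07 for the Cd livers and 0.43 to 1.3 for the Cr livers, with liver 5 the lowest in each. The correlation was 0.743 to 0.854 for the Cd livers and 0.537 to 0.906 for the Cr livers, again lowest in liver 5. A weaker response and a different one were not told apart.

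Of 10101 genes tested, the difference was called for 428 (4.24%) at an adjusted p of 0.05 or less (limma, Benjamini-Hochberg over all 17293 probe sets) and at least 1.8-fold. The Cd effect lay above the Cr effect for 162 genes (1.6%) and below it for 266 (2.63%). Among probe sets 637 were called (3.68%), and 979 without Cr exposed liver 5. The adjusted p alone was met by 473 genes with a higher (4.68%) and 936 with a lower Cd effect (9.27%). Those are the background shares for the gene lists below (13.9% in either direction), and the median difference over all genes was -0.05. The higher genes came mostly from a rise after Cd (87 with no Cr effect past the adjusted p) or a fall after Cr (52 with no Cd effect past it). The lower genes were split between a rise after Cr (117 with no Cd effect past it) and a fall after Cd (90 with no Cr effect past it). Another 29 called genes moved past the adjusted p in opposite directions, 8 up after Cd and down after Cr and 21 the other way. At the adjusted p alone the Cr effect passed for 4179 genes (41.4%), with 27.1% higher and 14.3% lower, and the Cd effect for 1863 (18.4%), with 9.76% higher and 8.68% lower, so a gene without a Cd call is not shown to be without a Cd effect.

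**Figure D1:**
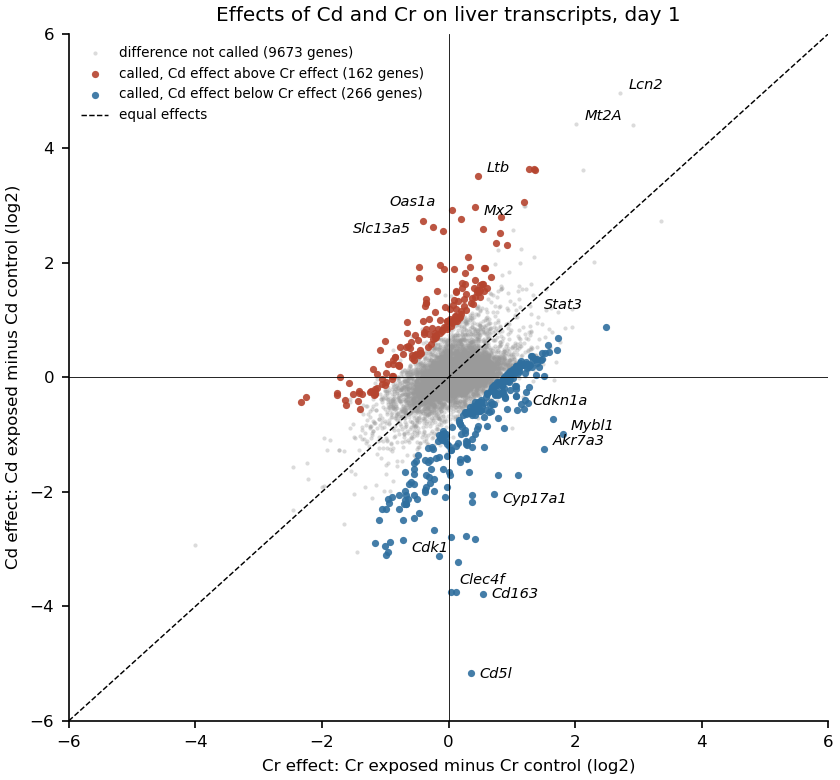
Cr effect (horizontal, log2) against Cd effect (vertical, log2) for the 10101 genes tested on day 1, each point 1 gene by its brightest probe set. Called differences lie off the dashed line of equal effects, 162 above it (red) and 266 below it (blue). Kupffer cell genes such as Cd5l, Cd163 and Clec4f lie far down near a Cr effect of 0.

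Kupffer cell transcripts gave the largest differences in the comparison. Of 11 Kupffer cell markers tested, 10 had a lower Cd effect and 0 a higher one, with a median difference of -3.05 (median Cd effect -3.11, median Cr effect 0.11). The marker that did not pass, Mrc1, a mannose receptor that sinusoidal endothelium also carries, had a difference of 0.07 (95% interval -0.51 to 0.65). Clec4f, a lectin found on rodent Kupffer cells, had log2 signals between 9.75 and 10.4 in the 5 Cd controls and of 6.08, 5.26, 5.61 and 8.48 in the Cd exposed livers. In the Cr controls Clec4f was at 10.12, 10.43, 10.29, 10.08 and 10.41, and in the Cr exposed livers at 10.29, 10.16, 10.38, 10.07 and 10.62. Every Cd exposed liver lay below every other liver of the comparison, and the Cr exposed livers overlapped their controls. The difference for Clec4f was -3.79 ± 0.56 (SE, adjusted p = 0.00111), which is 13.8-fold.

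Cd5l, a protein that macrophages secrete, had the largest difference among called genes, at -5.53 ± 1.09 (adjusted p = 0.00536). Its signals were 10.08, 10.76, 10.38, 10.14 and 10.18 in the Cd controls and 3.67, 3.84, 3.56 and 9.46 in the Cd exposed livers. In the Cr arm the controls were at 9.47, 10.05, 9.87, 10.69 and 10.05 and the exposed livers at 10.44, 10.53, 10.57, 9.76 and 10.65. Cd exposed livers 1, 2 and 4 had lost nearly all of the Cd5l signal, while liver 5 stood below its own controls and just under the lowest Cr control.

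Cd163, the scavenger receptor for haemoglobin and haptoglobin complexes, had a difference of -4.33 ± 0.54, and the Cd effect alone was -3.79. The complement C1q chains, which liver macrophages make, followed with C1qa at -3.86 ± 0.62, C1qc at -3.38 ± 0.53 and C1qb at -3.05 ± 0.52. Adgre1, which encodes the macrophage antigen F4/80, was at -2.96 ± 0.51 and Fcna, a ficolin, at -2.44 ± 0.34. For each of these the deviations of the 4 Cd exposed livers from their control mean did not overlap those of the Cr exposed livers, as held for 2196 of all genes tested (21.7%). Csf1r, the receptor for the macrophage growth factor CSF1, had a smaller difference of -1.21 ± 0.24. Over the whole list, the mean log2 signal per liver ranged from 8.49 to 9.02 in the Cd controls, 5.23 to 7.69 in the Cd exposed livers, 8.51 to 8.96 in the Cr controls and 8.54 to 9.16 in the Cr exposed livers. Leaving out each of the 19 livers in turn again gave 10 markers lower. In whole tissue, fewer cells of a type and less RNA per cell cannot be told apart.

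Genes outside the marker list fell with them after Cd. Siglec5, a sialic acid binding receptor of myeloid cells, had a difference of -2.83 ± 0.73, Anxa3, an annexin, -3.25 ± 0.44, and the chemokine gene Ccl6 -2.55 ± 0.5. Hpgds, the haematopoietic prostaglandin D synthase, was at -2.43 ± 0.32. Slc40a1 encodes ferroportin, the iron exporter through which macrophages and hepatocytes release iron, and its difference was -1.18 ± 0.17. These genes, apart from Slc40a1 of the iron list, were picked for the size of their differences and are not evidence apart from the markers.

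Markers of other cells moved less or the other way. Hepatocyte markers had 0 of 9 members past the adjusted p (median difference -0.01), as had the stellate cell and fibroblast list (0 of 10, median -0.26). The liver endothelial list had 2 of 11 higher, Lyve1 (0.94 ± 0.25), a hyaluronan receptor, and Eng (0.53 ± 0.16), the endoglin of blood vessels. That count ranged from 0 to 3 with 1 liver left out, and 12 of the 19 arrays each moved it by over 1.5 times. Of 6 neutrophil markers on the array 2 were bright enough to test, and both had a higher Cd effect: S100a8 (2.36 ± 0.52) and S100a9 (2.3 ± 0.58), which form calprotectin. S100a8 was tested only because it was high after Cd. Testing asked for a log2 signal of 5 or more in every liver of a group, and no other group met it. S100a8 read 9.42, 8.06, 7.98 and 8.53 in the Cd exposed livers and 5.77, 6.16, 4.39, 4.36 and 4.89 in the Cr exposed ones, and both metals raised it, but its controls already differed by 1.02. Its call, and that of S100a9, was lost under 1 setting. In the monocyte and dendritic cell list Ly6c (1.6 ± 0.36) and Itgax (0.78 ± 0.24) passed of 6 tested, and Itgax lost its call under 13 settings. That count of 2 was 1 without any 1 of 11 arrays. Fcgr3a of the same list went the other way, with a Cd effect of -0.59 and a Cr effect of 0.549, and did not pass. The count of lower members was 0, but 1 without Cd exposed liver 5 or without Cr control 4. In the fit of the arrays of all days, the list had 1 higher and 1 lower member on day 1. Epcam, an epithelial adhesion molecule, was the 1 of 3 bile duct markers that passed, at -1.6 ± 0.38 with a rise after Cr of 1.14. The erythroid list (0 of 4), the mesothelial list (0 of 2) and the 1 lymphocyte marker tested held none that passed. The part of any of these cell markers in the inflammatory genes below was not tested.

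**Figure D2:**
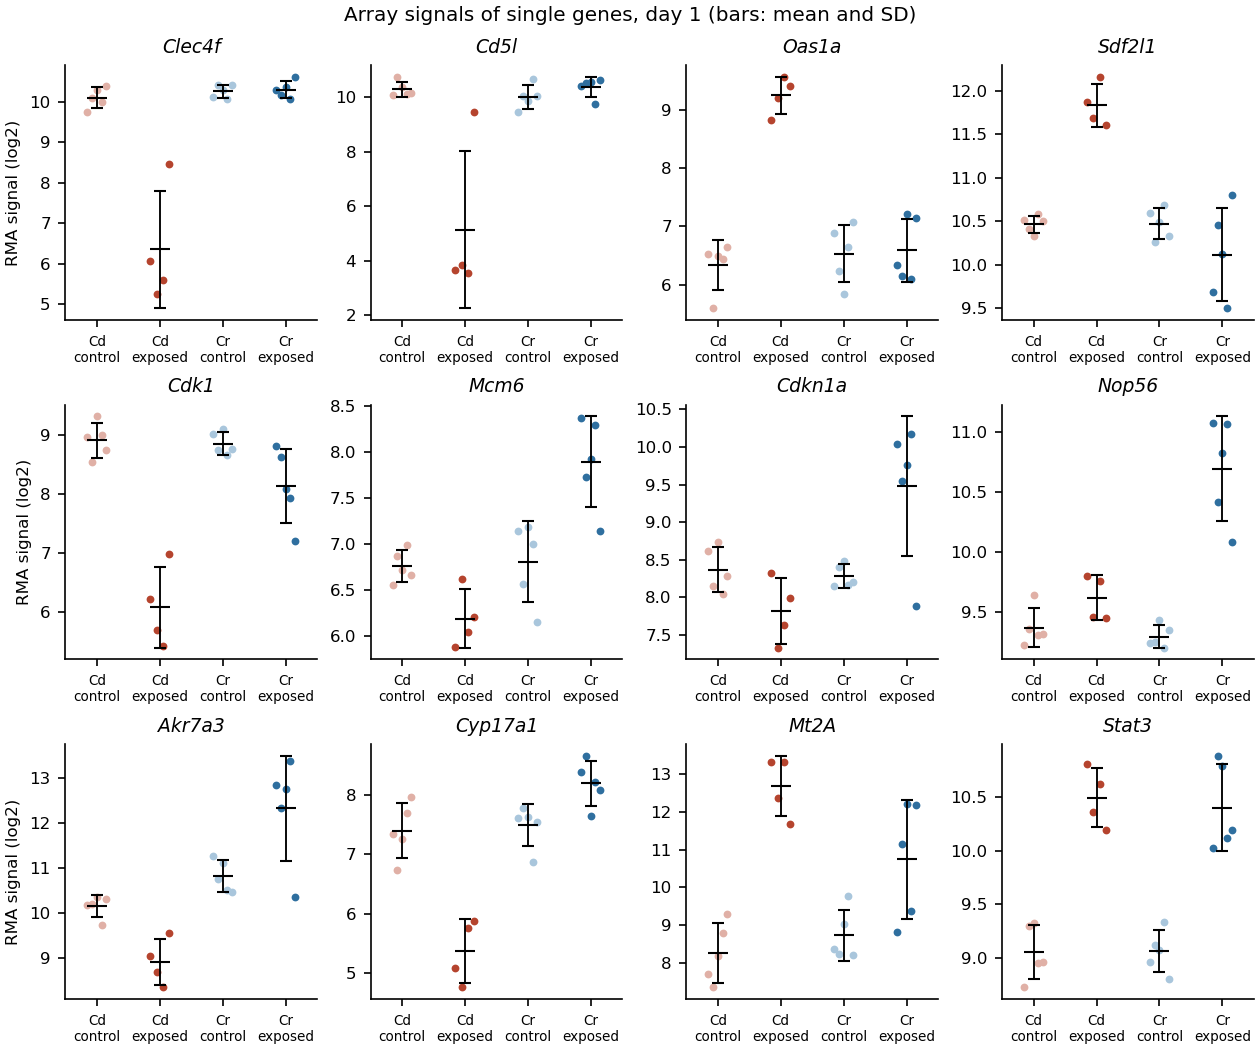
RMA log2 signals of 12 genes in each of the 19 day 1 livers (points), with the mean and SD of the group (bars), over the Cd control, Cd exposed, Cr control and Cr exposed groups. Clec4f and Cd5l are low in the Cd exposed livers, Nop56 rose in the Cr exposed livers, Akr7a3 and Cyp17a1 moved in opposite directions, and Stat3 rose in both exposed groups.

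Interferon-stimulated genes rose after Cd, and for most of them that rise exceeded the Cr effect. Of 37 tested, 22 had a higher Cd effect and 0 a lower one (median difference 0.82, median Cd effect 1.05, median Cr effect 0.27). The count was between 19 and 23 with 1 liver left out. These genes answer type I interferon through the ISRE, a short promoter element. In the 250 bases upstream of the RefSeq gene starts (build GRCr8), the element, searched on both strands as GAAA, any 2 bases and GAAA again, occurred in 19 of the 32 listed genes that have an entry (59.4%), against 227 of 8488 tested genes (2.67%). The windows of 3 members whose difference was called are given 5′ to 3′ on the gene's strand, with the matches in capitals, because they let the element be seen beside the values. They are Oas1a at chr12:41330216-41330465 (plus strand), where 2 matches overlap, Ifit3 at chr1:241527076-241527325 (plus strand) and Irf7 at chr1:205800024-205800273 (minus strand).
Oas1a: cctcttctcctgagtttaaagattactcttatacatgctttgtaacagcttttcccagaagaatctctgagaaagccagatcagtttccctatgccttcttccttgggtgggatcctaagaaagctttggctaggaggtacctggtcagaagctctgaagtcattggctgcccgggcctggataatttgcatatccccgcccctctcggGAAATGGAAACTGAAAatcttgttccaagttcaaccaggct
Ifit3: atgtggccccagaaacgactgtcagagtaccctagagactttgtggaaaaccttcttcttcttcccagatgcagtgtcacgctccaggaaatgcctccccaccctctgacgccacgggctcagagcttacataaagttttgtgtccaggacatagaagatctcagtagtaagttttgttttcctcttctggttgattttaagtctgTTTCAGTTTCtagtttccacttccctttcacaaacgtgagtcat
Irf7: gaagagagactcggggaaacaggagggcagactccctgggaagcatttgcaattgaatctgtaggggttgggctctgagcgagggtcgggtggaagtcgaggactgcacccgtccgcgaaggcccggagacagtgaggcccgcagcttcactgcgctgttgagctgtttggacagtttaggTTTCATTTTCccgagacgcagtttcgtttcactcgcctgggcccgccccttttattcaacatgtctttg
Mx1 holds no match in its window. A match is a string of letters and no evidence of binding.

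Oas1a makes the 2′,5′-oligoadenylates that activate RNase L. Its log2 signals were 6.52, 5.59, 6.49, 6.44 and 6.64 in the Cd controls and 8.83, 9.22, 9.57 and 9.41 in the Cd exposed livers. In the Cr controls they were 6.88, 6.24, 5.84, 6.64 and 7.07 and in the Cr exposed livers 6.33, 6.15, 7.21, 6.1 and 7.15. After Cd all 4 livers stood clear of the rest, and the Cr groups overlapped. The difference was 2.87 ± 0.38 (adjusted p = 0.000571), or 7.3-fold. Mx2, a dynamin-like antiviral GTPase, showed the same order with a Cd effect of 2.97, a Cr effect of 0.42 and a difference of 2.55 ± 0.39.

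Isg15, a ubiquitin-like modifier, rose after both metals. It read 8.0, 7.95, 8.13, 8.11 and 7.96 in the Cd controls and 11.37, 11.19, 11.97 and 12.08 after Cd. It read 8.02, 7.72, 7.42, 8.74 and 8.16 in the Cr controls and 9.79, 9.01, 9.82, 9.96 and 8.28 after Cr. Cr exposed liver 5 lay within its controls and the other 4 above them. The rise was 12.3-fold after Cd and 2.57-fold after Cr, and the difference was 2.26 ± 0.41 (adjusted p = 0.00337). Ifit3, which binds viral RNA in a complex with its relatives, had a difference of 2.03 ± 0.29, and Usp18, the protease that removes ISG15, one of 1.97 ± 0.39. Herc6, a ligase of the ISG15 pathway in rodents, was at 1.58 ± 0.31 and the transcription factor Irf7 at 1.1 ± 0.24. Mx1 passed at 1.27 ± 0.4 and lost its call under 16 settings.

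Ltb and Cxcl9, both cytokine genes, had a higher Cd effect. Ltb encodes lymphotoxin beta, a TNF family ligand that directs lymphoid tissue, and its signals were 5.57, 5.44, 5.83, 5.56 and 5.6 in the Cd controls and 8.98, 9.72, 8.43 and 9.31 after Cd. The Cr controls read 5.95, 5.45, 6.28, 5.87 and 5.97 and the Cr exposed livers 6.46, 6.25, 6.89, 6.19 and 6.1. With little spread within groups, Ltb had the smallest adjusted p of the genes named here (3.04 ± 0.29, adjusted p = 8.18e-06). Cxcl9, a chemokine that interferon gamma induces, had a difference of 2.64 ± 0.5, and its controls differed by 0.65. Of 14 chemokine genes tested 3 were higher and 1, Ccl6, lower. Ccl19, among the 3, and Ccl2 were tested only through the Cd exposed livers, the 1 group in which all read 5 or more. The rises of the neutrophil and monocyte attractants Cxcl1 (Cd effect 4.41, Cr effect 2.92) and Ccl2 (3.62 and 2.12) were past the adjusted p for both metals, and their differences of 1.5 ± 0.54 and 1.5 ± 0.7 did not pass (adjusted p = 0.0782 and 0.165), though that of Cxcl1 did under 4 settings.

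Among regulators of the interleukin 6 and NF-kB pathways, 6 of 23 had a higher Cd effect and 0 a lower one (median 0.35). The largest was Cebpd, a factor of the acute phase response, at 1.38 ± 0.3. Il1r1, the signalling receptor of interleukin 1, rose 2.29-fold after Cd, and its difference was 1.18 ± 0.32. Il1r2, the decoy receptor that binds interleukin 1 without signalling, had a larger difference of 2.56 ± 0.51, and Il1rn, the receptor antagonist, 1.35 ± 0.34. Cd14 (1.2, with a Cr effect of -0.851) and Nfkbiz (1.08) of the regulators list also passed, and their calls were lost under 10 and 8 settings. The last of the 6 were the inhibitors Irak3 (0.95 ± 0.23) and Socs3 (0.86 ± 0.19). Nfkbia, Tnfaip3 and Tnip1, other inhibitors in the list, did not pass. Il1r2 and Socs3 were tested only through the Cd exposed livers, the 1 group in which all read 5 or more. Sod2, the manganese superoxide dismutase of mitochondria and a known NF-kB target, read 10.7, 10.72, 10.9, 10.86 and 10.53 in the Cd controls and 12.83, 13.1, 13.12 and 12.32 after Cd. In the Cr arm it read 10.66, 10.72, 10.68, 10.81 and 10.57 without and 10.88, 10.87, 11.05, 10.95 and 11.23 with Cr. All Cd exposed livers were clear of the rest (difference 1.79 ± 0.18, adjusted p = 2.07e-05), and the Cr exposed livers were all slightly above their controls, with an effect of 0.31 that did not pass (adjusted p = 0.0568). Sod2 was the 1 of 16 superoxide and peroxide enzymes that passed.

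Acute phase plasma proteins, which hepatocytes secrete in inflammation, rose after both metals: 12 of 20 after Cd and 10 after Cr. For the difference 2 passed, Il1rn and Cp (0.54 ± 0.16), the copper-carrying ceruloplasmin, whose call was lost under 12 settings. That count ranged from 1 to 6 with 1 liver left out, and 9 arrays each moved it by over 1.5 times. Lcn2, the siderophore-binding lipocalin, rose by 4.97 after Cd and 2.71 after Cr. Its difference of 2.26 ± 1.35 was not past the threshold (adjusted p = 0.285). The Cd controls ranged from 4.23 to 10.27 and the Cr controls from 4.66 to 5.69, and their means differed by 3.14. The Lcn2 difference was 1.23 without Cd control 2, and it passed against pooled controls (4.33) and against controls of days 3 and 7 (5.37).

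Chaperones of the endoplasmic reticulum (ER) were higher after Cd. When unfolded proteins gather in the ER, sensors in its membrane raise chaperones, oxidases and the degradation machinery. Of 29 genes of this response, 13 had a higher Cd effect and 0 a lower one (median difference 0.47), and after Cd 21 rose and 0 fell. The count was between 10 and 18 with 1 liver left out. Sdf2l1, an ER-resident partner of chaperones, read 10.52, 10.41, 10.33, 10.58 and 10.5 in the Cd controls and 11.87, 11.69, 12.16 and 11.61 after Cd. It read 10.6, 10.26, 10.49, 10.69 and 10.33 in the Cr controls and 9.69, 10.46, 10.13, 9.5 and 10.8 after Cr. The Cd exposed livers lay above all others, and the Cr exposed livers spread to both sides of their controls. Its difference of 1.72 ± 0.27 (adjusted p = 0.00137) was the largest of the list. Ero1b, an oxidase of protein disulphide isomerases, followed at 1.43 ± 0.36, then the chaperone Hyou1 at 1.32 ± 0.31, Sel1l, of the degradation complex, at 1.27 ± 0.25, and Dnajb11 at 1.07 ± 0.21. Hspa5, the chaperone BiP, rose 1.31-fold after Cd, and its difference of 0.26 ± 0.12 did not pass.

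The ER stress element, CCAAT separated by 9 bases from CCACG and searched on both strands, occurred upstream of 8 of 22 list members with an entry (36.4%) and of 16 of 8488 tested genes (0.189%). Members whose difference was called and that hold it are shown with the match in capitals, Creld2 at chr7:121789134-121789383 (plus strand) and Ero1b at chr17:92941432-92941681 (plus strand). In both windows the capitals hold the reverse complement of the letters searched.
Creld2: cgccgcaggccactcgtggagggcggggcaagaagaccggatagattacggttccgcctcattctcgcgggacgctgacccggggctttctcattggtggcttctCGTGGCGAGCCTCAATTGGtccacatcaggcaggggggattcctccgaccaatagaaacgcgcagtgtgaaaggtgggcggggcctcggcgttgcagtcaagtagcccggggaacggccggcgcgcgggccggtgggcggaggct
Ero1b: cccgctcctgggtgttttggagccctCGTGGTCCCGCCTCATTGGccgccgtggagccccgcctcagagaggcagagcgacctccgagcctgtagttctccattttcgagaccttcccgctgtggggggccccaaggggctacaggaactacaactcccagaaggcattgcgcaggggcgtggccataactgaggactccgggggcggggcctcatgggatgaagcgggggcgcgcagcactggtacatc
Sdf2l1 and Hyou1 do not hold these exact letters in their windows. Xbp1 and Hspa5 are among the 8 that do, and neither had a higher Cd effect that passed. Xbp1 had a Cd effect of 0.136 and a Cr effect of 0.621. Creld2, an ER-resident protein disulphide handler, passed at 1.11 ± 0.34, and its call was lost under 16 settings.

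The integrated stress response, through which several kinases slow translation and raise ATF4 targets, had 4 of 25 genes higher and 1 lower (median 0.12), and the 1 became 0 without any 1 of 15 arrays. Nupr1, a small stress-induced nuclear protein, had a difference of 2.2 ± 0.57, with signals of 9.89, 9.59, 10.12 and 10.25 after Cd against 6.66, 8.6, 7.45, 7.03 and 8.95 after Cr. Pck2, the mitochondrial form of PEP carboxykinase, was at 1.62 ± 0.36 and Ddit3, the factor CHOP, at 0.89 ± 0.18. Asns, asparagine synthetase, rose after both metals (1.99 and 1.13), and its difference of 0.86 had an interval of -0.29 to 2.01.

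Genes of mitosis fell after both metals, and further after Cd. All 28 tested fell after Cd and 22 after Cr, and the difference was lower for 25 and higher for 0 (median difference -1.51, Cd effect -2.13, Cr effect -0.69). With 1 liver left out the count was between 21 and 27. Cdk1, the kinase that drives entry into mitosis, read 8.97, 8.54, 9.32, 9.0 and 8.74 in the Cd controls and 6.21, 5.69, 5.42 and 6.98 after Cd. It read 9.02, 8.74, 9.1, 8.67 and 8.76 in the Cr controls and 8.81, 8.63, 8.08, 7.94 and 7.21 after Cr. The Cd exposed livers lay below all others, and 4 of the 5 Cr exposed livers were below all Cr controls. Its difference was -2.12 ± 0.4 (adjusted p = 0.00439). Kif20a, a kinesin of cytokinesis (-2.1 ± 0.44), Ect2, the exchange factor that sets up the cleavage furrow (-2.09 ± 0.46), and Cdc20, an activator of the anaphase-promoting complex (-1.94 ± 0.5), had like differences. Ccnb1, the cyclin partner of Cdk1, was at -1.95 ± 0.48 and lost its call under 1 setting. Foxm1, a transcription factor of these genes, was 1 of the 3 that did not pass, at -0.46 ± 0.21.

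Promoters of genes expressed in late cell cycle often carry the CHR, a short element bound by DREAM and MuvB complexes. Its letters TTTGAA, on either strand, were found in 13 of 24 mitosis promoters (54.2%) and in 856 of 8488 tested genes (10.1%). Windows of 2 mitotic regulators show it close to the start, Cdk1 at chr20:19265043-19265292 (plus strand) and Cdc20 at chr5:137255800-137256049 (minus strand).
Cdk1: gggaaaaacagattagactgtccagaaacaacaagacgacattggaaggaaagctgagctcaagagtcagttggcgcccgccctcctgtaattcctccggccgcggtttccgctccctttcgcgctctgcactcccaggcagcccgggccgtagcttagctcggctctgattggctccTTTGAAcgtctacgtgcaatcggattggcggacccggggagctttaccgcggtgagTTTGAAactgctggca
Cdc20: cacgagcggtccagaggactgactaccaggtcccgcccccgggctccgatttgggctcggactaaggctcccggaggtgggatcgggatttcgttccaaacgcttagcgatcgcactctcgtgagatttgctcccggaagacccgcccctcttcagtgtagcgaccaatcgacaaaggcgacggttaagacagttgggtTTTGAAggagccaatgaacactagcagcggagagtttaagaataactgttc
Ccnb1 and Kif20a hold none in the window.

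DNA replication genes differed in another way, with many rising after Cr. Of 36 tested, 20 rose and 1 fell after Cr, 0 rose and 10 fell after Cd, and 22 had a lower Cd effect and 0 a higher one (median difference -0.71). The count was 14 without Cr exposed liver 4 and at most 28. Mcm6, a subunit of the helicase that opens replication origins, read 6.55, 6.87, 6.71, 6.99 and 6.66 in the Cd controls and 5.88, 6.62, 6.04 and 6.2 after Cd. It read 7.14, 6.56, 7.18, 7.0 and 6.15 in the Cr controls and 8.37, 7.73, 7.92, 8.29 and 7.14 after Cr. Cr exposed liver 5 stayed among its controls and the other 4 were above them (difference -1.65 ± 0.32, adjusted p = 0.00487). Tyms, thymidylate synthase, was at -1.4 ± 0.37, Gins1, another part of the replicative helicase, at -1.26 ± 0.25, and Rrm1, the large subunit of ribonucleotide reductase, at -1.19 ± 0.2. For Tyms and Gins1 the Cr effect passed and the Cd effect did not, and for Rrm1 the reverse held. Gins1 was bright enough to test only through the Cr exposed livers.

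Mybl1, a Myb family transcription factor, had signals of 6.59, 6.2, 6.32, 5.95 and 6.21 in the Cd controls and 5.54, 5.01, 5.17 and 5.36 after Cd. It had 6.77, 6.86, 6.61, 5.78 and 6.04 in the Cr controls and 9.14, 7.84, 8.14, 9.66 and 6.29 after Cr. All Cd exposed livers were below the rest. The 4 highest values were Cr exposed livers, and liver 5 was again among its controls. The difference was -2.79 ± 0.6 (adjusted p = 0.00843), and the Cd effect of -0.99 missed the threshold (adjusted p = 0.145). Ccnd1, the G1 cyclin, had a difference of -1.76 ± 0.44. Myc rose after Cr by 1.01, with a difference of -1.09 that did not pass (adjusted p = 0.164). Of 20 G1 cyclins and Myc and Myb factors 4 were lower and 1 higher, and 14 of the 19 arrays moved the count of 4 by over 1.5 times when left out (2 to 7), as 16 did that of 1 (0 to 3).

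Several p53 targets rose after Cr. Of 21 tested, 8 rose and 4 fell after Cr, where 27.1% of all genes rose and 14.3% fell, so these counts do not set the list apart. After Cd 1 rose and 2 fell, against 9.76% and 8.68% of all genes. For the difference 4 had a lower Cd effect (8 without Cr exposed liver 5) and 0 a higher one, against 9.27% and 4.68%. Cdkn1a, the cyclin-dependent kinase inhibitor p21, read 8.62, 8.15, 8.74, 8.04 and 8.29 in the Cd controls and 8.33, 7.33, 7.63 and 7.99 after Cd. It read 8.15, 8.41, 8.49, 8.17 and 8.2 in the Cr controls and 10.04, 9.55, 9.76, 10.17 and 7.88 after Cr. Cr exposed liver 5 lay below every control, and the other 4 Cr exposed livers lay above all of them. The difference was -1.75 ± 0.45 (adjusted p = 0.0199). Aen, a nuclease of apoptosis (-1.34 ± 0.2), Ccng1, cyclin G1 (-1.24 ± 0.33), and Phlda3, an inhibitor of AKT (-1.49 ± 0.36), were the others that passed. The Cr effect was 1.38 for Aen and 1.42 for Ccng1, against 0.04 and 0.18 for Cd. Mdm2, the ligase that degrades p53, rose by 1.36 after Cr, and its difference of -1.26 ± 0.43 did not pass (adjusted p = 0.0601), but did under 8 settings.

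Ribosome biogenesis formed the largest group of lower differences by count. These genes make the nucleolar machinery that transcribes, trims and modifies ribosomal RNA. Of 67 tested, 64 rose after Cr and 9 after Cd, and the Cd effect was lower for 38 and higher for 0 (median difference -0.62, Cd effect 0.22, Cr effect 0.86). The count was 25 without Cd exposed liver 2 and at most 54. Nop56, a core protein of box C/D ribonucleoproteins, read 9.22, 9.36, 9.64, 9.31 and 9.32 in the Cd controls and 9.8, 9.46, 9.76 and 9.45 after Cd. It read 9.24, 9.25, 9.43, 9.2 and 9.35 in the Cr controls and 11.08, 10.42, 10.83, 11.07 and 10.08 after Cr. All 5 Cr exposed livers were above every other liver (difference -1.15 ± 0.22, adjusted p = 0.00484). Gnl3, nucleostemin (-1.21 ± 0.23), Gar1, of box H/ACA particles (-1.13 ± 0.22), and Riok2, a kinase of small subunit maturation (-1.13 ± 0.2), were alike in size. The E-box letters CACGTG, which MYC binds among other factors, were in 13 of 63 promoters of the list (20.6%) and in 722 of 8488 tested genes (8.51%), with Gnl3 and Riok2 among the former and Nop56 and Gar1 not.

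Heat shock proteins, the folding machinery of cytosol and mitochondria, rose mostly after Cr, with 12 up after Cr and 1 after Cd. Of 22 heat shock proteins 9 had a lower Cd effect and 0 a higher one (median difference -0.47). Hsp90ab1, the constitutive HSP90, had a difference of -1.09 ± 0.21, Chordc1, an HSP90 partner, -1.01 ± 0.22, and Fkbp4, a co-chaperone of steroid receptors, -0.97 ± 0.18. Hspa1a, the stress-inducible HSP70, had a mean rise of 4.65-fold after Cd and a Cr effect of 0.776. Its difference of 1.44 ± 0.84 did not pass. It read 10.59, 6.01, 6.28 and 7.75 after Cd, against 4.95 to 6.18 in the Cd controls. Cd exposed liver 1 was thus far above the other Cd exposed livers, and liver 2 lay within the controls. Proteasome subunits rose after Cr (26 of 30) more often than after Cd (2 of 30). The difference passed for 2, Psmc1 (-0.52 ± 0.16) and Psmd13 (-0.46 ± 0.14), and ranged from 0 to 17 with 1 liver left out, so that 18 of the 19 arrays moved it by over 1.5 times. Cytosolic aminoacyl-tRNA synthetases gave 2 of 19, Nars1 (-0.56 ± 0.16) and Farsb (-0.41 ± 0.12), with 0 to 5 over the same series. Of 12 polyamine genes 0 passed (median 0.01).

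**Figure D3:**
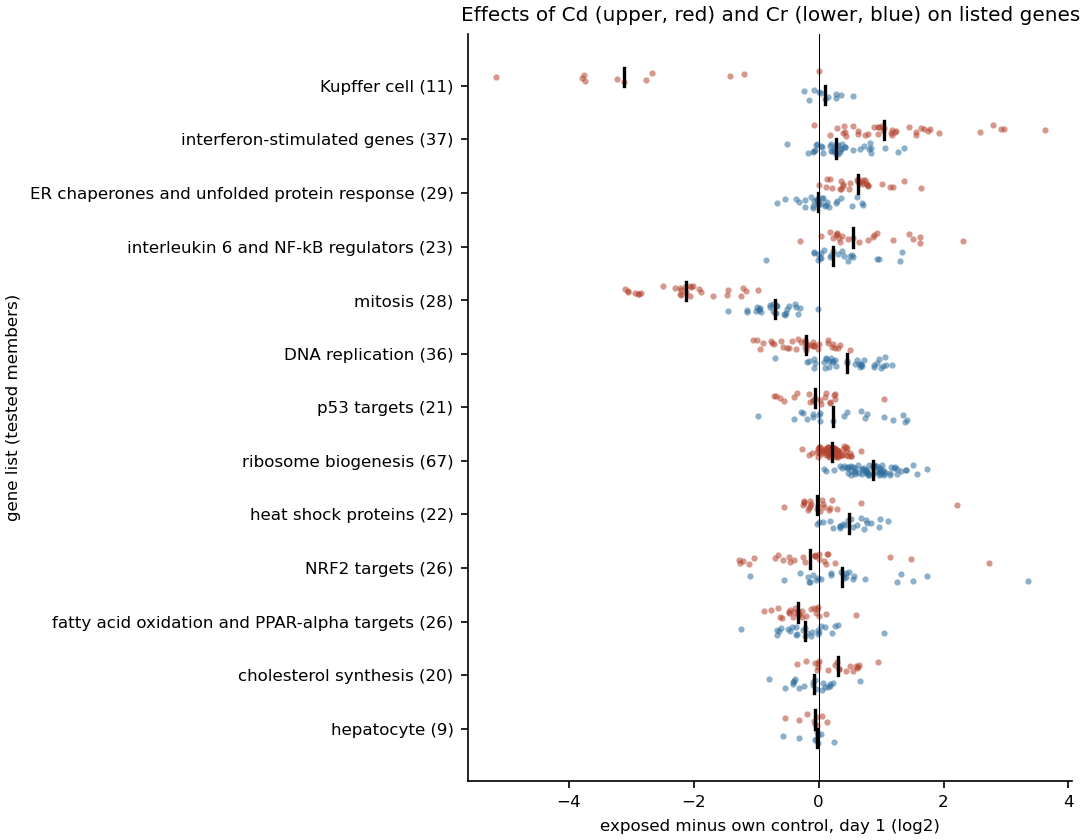
Effects of Cd (upper points of each row, red) and Cr (lower points, blue) on the tested members of 13 gene lists on day 1, in log2 of exposed minus own control, with black bars at the medians. Kupffer cell members lie between 0 and -5.17 after Cd and near 0 after Cr, and ribosome biogenesis members lie further right after Cr than after Cd.

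NRF2 is the factor that raises antioxidant and conjugating enzymes when oxidants or electrophiles appear. Of 26 targets tested, 7 had a lower Cd effect and 1, Hmox1, a higher one (median difference -0.51). After Cd 3 rose and 10 fell (9.76% and 8.68% of all genes), and after Cr 10 rose and 3 fell (27.1% and 14.3% of all genes). The count of 7 became 15 without Cr exposed liver 5 and 4 without Cd control 3 or 4, Cr control 5 or Cr exposed 1 or 4, and the 1 became 0 without any 1 of 9 arrays. Nfe2l2, which encodes NRF2 itself, fell after Cd and rose after Cr (difference -1.26 ± 0.25). Its signals were 10.9, 10.58, 10.93, 11.05 and 10.92 in the Cd controls and 9.84, 10.2, 10.23 and 10.45 after Cd. In the Cr arm they were 10.84, 10.87, 10.83, 10.87 and 11.12 without and 11.95, 11.07, 11.2, 12.02 and 11.1 with Cr. The Cd exposed livers lay below all others, and Cr exposed livers 2 and 5 overlapped their controls.

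Akr7a3, an aldehyde reductase that handles aflatoxin dialdehyde, was the 1 gene of the 116 called for both metals that moved in opposite directions. It read 10.17, 10.2, 10.35, 9.73 and 10.32 in the Cd controls and 9.03, 8.69, 8.34 and 9.55 after Cd. It read 11.26, 10.75, 11.12, 10.51 and 10.46 in the Cr controls and 12.84, 12.33, 12.75, 13.38 and 10.35 after Cr. Cr exposed liver 5 was below its controls and the other 4 above them. The fall was 2.38-fold and the rise 2.85-fold (difference -2.76 ± 0.56, adjusted p = 0.00628), and the controls differed by -0.67. Ephx1, microsomal epoxide hydrolase (-1.77 ± 0.39), and Gclc, the catalytic subunit that limits glutathione synthesis (-1.31 ± 0.23), fell after Cd with Cr effects of 0.56 and 0.04 that did not pass. Srxn1, sulfiredoxin, rose after Cr by 1.33, and its difference of -1.39 did not pass (adjusted p = 0.103), but did under 6 settings. Hmox1, the inducible heme oxygenase, rose 2.79-fold after Cd. Its difference of 1.04 ± 0.31 passed, and was lost under 13 settings.

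Glutathione transferases gave 3 of 18 lower and 0 higher (median -0.15). Gsta3 had the largest difference, -2.81 ± 0.63, with 5.63, 5.02, 4.95 and 6.36 after Cd and 9.87, 9.66, 9.88, 9.84 and 7.22 after Cr. Its controls differed by -1.0, and the deviations of the exposed groups overlapped, with liver 5 of each nearest the other group. Gstm1 (-1.24 ± 0.25) and Gstm4 (-1.01 ± 0.26) were the others. Aldh1a1, a retinaldehyde dehydrogenase, was at -2.5 ± 0.55 with a control difference of -0.86, and Aldh7a1 was the other of 15 aldehyde dehydrogenases to pass (0.56 ± 0.14).

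Mt2A, a metallothionein, rose after both metals, and the difference between its rises did not pass the threshold. Mt2A read 7.69, 7.34, 8.18, 8.79 and 9.29 in the Cd controls and 13.34, 12.37, 13.34 and 11.69 after Cd. It read 8.36, 8.24, 9.03, 9.78 and 8.21 in the Cr controls and 8.81, 11.14, 12.2, 9.38 and 12.18 after Cr. Cr exposed livers 1 and 4, which had the largest response slopes (1.27 and 1.3), had the smallest rises here. Liver 5, with the lowest slope (0.43), was among the highest, and for Lcn2 it was the highest Cr exposed liver (10.78). The rise was 21.5-fold after Cd and 4.05-fold after Cr, and the difference of 2.41 had an interval of 0.62 to 4.2 (adjusted p = 0.072), which passed under 5 settings. Mt1 rose by 1.02 after Cd, with a Cr effect of 0.31 that did not pass (adjusted p = 0.273), a difference of 0.71 ± 0.32 (adjusted p = 0.15) and controls that differed by 1.02. Its probe set was dim: 5.02 to 5.63 in the Cd controls, 5.79 to 6.74 after Cd, 3.95 to 4.75 in the Cr controls and 4.17 to 5.04 after Cr. The study's array values for Mt1a, against pooled controls, rose further after both metals on day 1. This probe set may therefore understate the gene. The metal response element, to which the zinc-sensing factor MTF1 binds, was searched by the letters TGCNCNC on both strands. They are looser than its usual core TGCRCNC, where R is A or G. Of the capitals below, GAGGGCA in Mt2A and GAGAGCA in Mt1 match the looser letters only. The letters searched are common: 4584 of 8488 tested genes hold at least 1 match (54%), but only 38 hold 5 or more (0.448%). Of 15 members of the metallothionein and zinc transporter list with an entry, 3 hold 5 or more: Mt2A, Mt1 and Mt3. Mt3 holds 5 and did not rise (Cd effect 0.006, Cr effect -0.178). Mt2A holds 5 at chr19:10838709-10838958 (minus strand) and Mt1 holds 7 at chr19:10832976-10833225 (minus strand), shown here in capitals.
Mt2A: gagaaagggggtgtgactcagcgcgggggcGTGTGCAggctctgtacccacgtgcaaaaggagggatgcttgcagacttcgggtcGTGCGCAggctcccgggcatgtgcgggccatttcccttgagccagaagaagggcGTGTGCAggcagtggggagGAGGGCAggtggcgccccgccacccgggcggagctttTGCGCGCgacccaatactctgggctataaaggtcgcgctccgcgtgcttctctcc
Mt1: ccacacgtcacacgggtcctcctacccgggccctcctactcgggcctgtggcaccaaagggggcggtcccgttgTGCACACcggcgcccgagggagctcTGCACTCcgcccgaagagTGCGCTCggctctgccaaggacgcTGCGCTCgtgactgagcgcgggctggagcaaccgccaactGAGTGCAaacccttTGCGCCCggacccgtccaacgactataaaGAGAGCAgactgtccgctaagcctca
Of 19 metallothioneins and zinc transporters, 3 had a higher difference and 1 a lower one. The 3 became 1 without Cd exposed liver 4 and 5 without Cr exposed liver 5, and the 1 ranged from 0 to 3, with 6 arrays each moving it. Slc39a14, the carrier ZIP14 that takes zinc, iron and manganese into hepatocytes, rose 1.89-fold after Cd (difference 0.75 ± 0.16).

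Iron handling genes split. Tfr2, an iron sensor of hepatocytes (1.19 ± 0.24), Slc11a2, the transporter DMT1 (0.98 ± 0.18), Hmox1 and Cp were higher, and Slc40a1, Blvra and Cpox were lower, of 23 tested. The count of 4 was between 2 and 5 with 1 liver left out, and it was 2 without any 1 of 6 arrays. Among steroid enzymes, Cyp17a1, the 17-hydroxylase and lyase, read 7.35, 6.74, 7.26, 7.7 and 7.97 in the Cd controls and 5.08, 4.75, 5.76 and 5.87 after Cd. It read 7.62, 7.78, 7.64, 6.88 and 7.55 in the Cr controls and 8.39, 8.67, 7.65, 8.23 and 8.09 after Cr. The Cd exposed livers were below all others and 4 of the Cr exposed livers above all Cr controls (difference -2.75 ± 0.36, adjusted p = 0.000436). Hsd17b2, which oxidises estradiol and testosterone, fell after both metals (difference -0.96 ± 0.2), and Sts, steroid sulfatase, fell after Cr (-0.88) with a Cd effect of 0.23 that did not pass (difference 1.11 ± 0.26).

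The counts of the metabolic lists stand against 4.68% of all genes with a higher and 9.27% with a lower Cd effect. In cytochrome P450 families 1 to 4, 21 of 32 genes fell after Cr and 11 after Cd, and 4 had a higher and 0 a lower difference (8 higher without Cr exposed liver 5). Those 4 include Cyp4f4 (1.19 ± 0.3), a leukotriene and fatty acid hydroxylase, Cyp2a2 (0.95 ± 0.26) and Cyp2d3 (0.66 ± 0.16), and their Cr effects were -1.42, -1.14 and -1.21 against Cd effects of -0.23, -0.19 and -0.55. Bile acid genes gave 4 of 24 higher and 1 lower. Abcb11, the bile salt export pump, fell by 0.87 after Cr with a Cd effect of 0.03 (difference 0.9 ± 0.24), and Cyp7b1, an oxysterol hydroxylase, rose by 1.51 after Cd. Cyp7b1 was bright enough to test only through the Cd exposed livers. The count of 4 was between 2 and 6 with 1 liver left out, and 9 arrays each moved it by over 1.5 times. The 1 lower ranged from 0 to 2, with 15 arrays moving it. In fatty acid synthesis, where 14 of 20 genes fell after Cr and 9 after Cd, Acss2 (1.2 ± 0.32), which makes acetyl-CoA, and Acaca (0.75 ± 0.18), which commits it to fatty acids, were higher. Cholesterol synthesis had 0 of 20 past the threshold (median 0.33), and 7 without Cr exposed liver 5.

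Of 41 urea cycle and amino acid genes, 22 fell after Cd and 30 after Cr. In the difference 5 were higher and 4 lower, against 4.68% and 9.27% of all genes. The 5 became 1 without Cd exposed liver 5, and 17 of the 19 arrays moved that count by over 1.5 times. Prodh, proline dehydrogenase, fell by 1.52 after Cr (difference 1.23 ± 0.3). Bhmt, which remethylates homocysteine, fell after both metals, more after Cd (-2.3 and -1.06, difference -1.25 ± 0.24). Arg1, arginase, moved by -0.3 after Cd and 0.25 after Cr, both past the adjusted p, with a difference of -0.55 ± 0.1. Slc2a2, the glucose transporter GLUT2 of hepatocytes, was the 1 glucose gene of 18 that passed (-0.99 ± 0.24). Plin2, which coats lipid droplets, and Cpt2, of mitochondrial fatty acid import, were the 2 of 26 in fatty acid oxidation (-0.91 ± 0.18 and -0.53 ± 0.15), the latter lost under 8 settings. Foxa3, a hepatocyte transcription factor, was lower (-1.46 ± 0.27) and Nr5a2, a regulator of bile acid genes, higher (0.7 ± 0.15), of 16 tested. Per2 was the 1 of 14 clock genes (-1.23 ± 0.32).

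Among the largest higher differences were genes outside the lists. Slc13a5, a citrate importer of hepatocytes, read 10.16, 9.95, 8.99 and 7.71 after Cd and 5.68, 6.46, 5.8, 6.26 and 6.29 after Cr, and its difference was 2.89 ± 0.53. Pcsk5, a proprotein convertase, was at 2.39 ± 0.34 and Isyna1, which makes inositol phosphate, at 2.1 ± 0.34. Spink1, a trypsin inhibitor that also rises in the acute phase, had the largest positive value, 3.12 ± 0.8, with controls that differed by 0.96. In each of these 4 the Cr effect was between -0.47 and -0.14 and did not pass.

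Opposite movements were few. With the fold threshold Akr7a3 was alone, and at the adjusted p alone 51 genes moved in opposite directions, 36 down after Cd and up after Cr and 15 the other way. Of these the difference was called for 29. Sel1l, Duoxa1, a maturation factor of the oxidase DUOX1, and Arg1 are examples of both kinds. Duoxa1 rose by 0.97 after Cd and fell by 0.66 after Cr (difference 1.63 ± 0.23), and its controls differed by -0.66, as large as its Cr effect.

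Some genes were called for both metals. Cd called 478 genes with the fold threshold (4.73%) and Cr 519 (5.14%). Of the 116 called for both, 115 moved the same way, 43 up and 72 down, and for 31 of them the 95% interval of the difference lay within 1.8-fold either way. Stat3, the factor through which interleukin 6 acts, read 10.8, 10.36, 10.62 and 10.19 after Cd and 10.02, 10.88, 10.79, 10.12 and 10.19 after Cr. The Cd controls were between 8.73 and 9.33 and the Cr controls between 8.81 and 9.34, so that all 9 exposed livers lay above all 10 controls. Its difference was 0.1 with an interval of -0.42 to 0.62. Hgf, the hepatocyte growth factor, rose 2.07-fold and 2.12-fold (interval of the difference -0.53 to 0.46), and Fas, the death receptor, 2.07-fold and 2.06-fold (-0.61 to 0.62). Isg20, an RNA exonuclease of the interferon group, had an interval of -0.53 to 0.73, and Ablim3, an actin-binding protein, one of -0.3 to 0.79. Ddc, the aromatic amino acid decarboxylase, fell 3.75-fold and 3.98-fold (-0.29 to 0.46). Gls2, the liver glutaminase (-0.32 to 0.67), Gstp3, a transferase (-0.71 to 0.51), Xpnpep2, a peptidase (-0.36 to 0.65), and Rcan2, a calcineurin regulator (-0.5 to 0.84), also fell alike within these bounds. For 17 of the 115 the difference passed the adjusted p although both effects had the same sign.

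Fewer differences were called on the later days. A fit of all 59 arrays called 734 probe sets on day 1 (4.24%), 6 on day 3 (0.0347%) and 90 on day 7 (0.52%), each against the controls of its own day. The day 1 difference itself differed from that of day 3 at 527 probe sets (3.05%) and from that of day 7 at 381 (2.2%). Of the Kupffer cell markers 0 of 11 passed on day 3 (median difference 0.28) and 0 on day 7 (0.53). C1qa went from -3.86 on day 1 to 0.33 and 0.53, a change that passed for both days (adjusted p = 4.51e-06 and 1.2e-06). Clec4f was at -1.12 ± 0.44 on day 3, with a Cd effect of -1.19, and at 0.45 on day 7. Ltb changed from 3.04 to -0.64 and 0.03 and Oas1a from 2.87 to 1.02 and 0.79, and both changes passed for both days. Isg15 kept a difference of 1.11 ± 0.32 on day 3 and 0.87 ± 0.32 on day 7, neither past the adjusted p, and its change from day 1 did not pass either (adjusted p = 0.119 and 0.0697). On day 3 the adjusted p was met by Mx1 (1.7 ± 0.35, adjusted p = 0.0351), the 1 interferon-stimulated gene that did, and Ly6c (1.71 ± 0.32, adjusted p = 0.011). On day 7 Cxcl1 passed at 3.37 ± 0.8, with a Cd effect of 1.1 and a Cr effect of -2.27.

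Mitosis genes differed again on day 7. On day 3, 0 of 28 passed (median 0.06), when 0.0495% of all genes were higher and 0 lower, and on day 7, 22 had a lower Cd effect and 0 a higher one (median -1.71), against 53 of 10101 genes lower (0.525%) and 21 higher (0.208%). The parts of the difference had changed: on day 1 the median effect was -2.13 after Cd and -0.69 after Cr, and on day 7 it was -0.58 after Cd and 1.13 after Cr. Cdk1 had a difference of -2.12 on day 1, 0.06 on day 3 and -2.55 ± 0.59 on day 7 (adjusted p = 0.0202), with a day 7 Cd effect of -1.04 and Cr effect of 1.5. Ccnb1 had -2.5 ± 0.55 on day 7 (adjusted p = 0.0158). Of the 36 replication genes 1 passed on day 7, Rrm1 (-0.89 ± 0.23). Ribosome biogenesis, ER, heat shock and NRF2 lists had 0 members past the adjusted p on days 3 and 7.

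**Figure D4:**
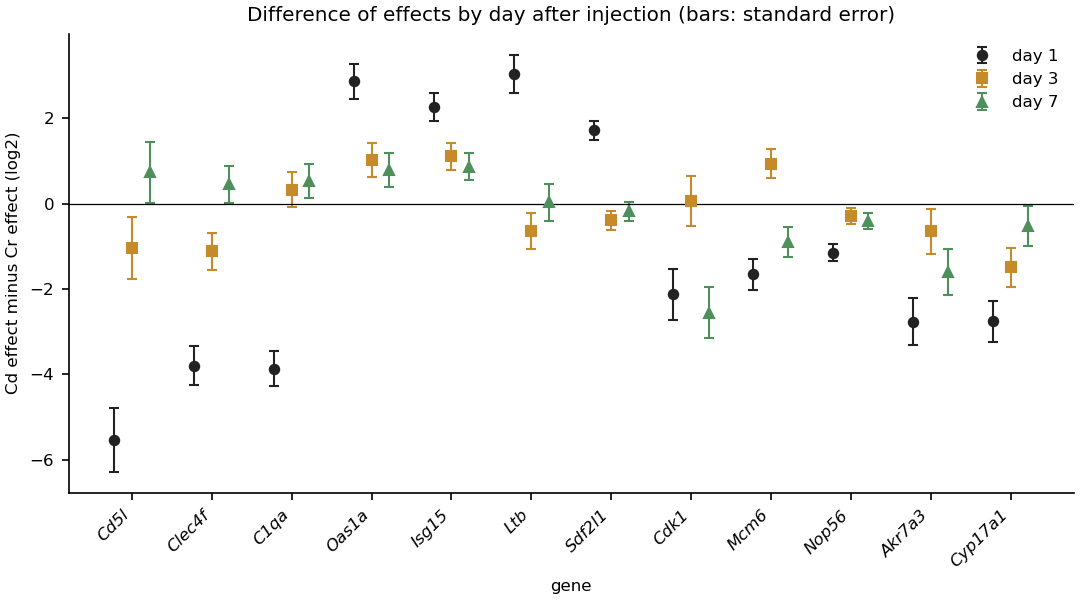
Difference of effects (Cd effect minus Cr effect, log2) of 12 genes on days 1, 3 and 7 after injection, with standard errors from 1 fit of all 59 arrays. Cd5l, Clec4f and C1qa are furthest below 0 on day 1, and Cdk1 is below 0 on days 1 and 7 and at 0.06 on day 3.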

How the data were processed

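Total RNA from livers of single rats was labelled as biotin cRNA, and the 19 day 1 arrays were analysed as Cd control (5), Cd exposed (4), Cr control (5) and Cr exposed (5) groups taken from the labels. The deposited log2 values had been normalised by the authors with RMA in Partek, so background correction and quantile normalisation over the arrays preceded every value here, and a shift common to all probe sets would not be seen. Of 31099 probe sets, 57 array controls were removed, and of the other 31042 the platform annotation gives 1 gene symbol for 20826, several for 436 and none for 9780. A probe set was tested if its log2 signal was 5 or more in every array of at least 1 group, which left 17293 probe sets and 10101 genes, each gene read by its brightest probe set over the 59 arrays. A gene that was low elsewhere could enter through the group in which it was high. That held for Ccl19, Ccl2, Cyp7b1, Il1r2, S100a8 and Socs3 through the Cd exposed livers and for Gins1 through the Cr exposed ones. Their entry is not independent of their values.

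One limma model (limma 3.58.1, statmod 1.5.0, R 4.3.3) with a mean per group and empirical Bayes variances gave the Cd effect, the Cr effect, their difference and the difference between the controls, with Benjamini-Hochberg adjustment over all probe sets tested. Calls needed both an adjusted p no higher than 0.05 and a change of at least 1.8-fold, the criteria of the study, and members of a gene list were counted at the adjusted p alone. Values after ± are standard errors of the difference, and intervals are 95% intervals. All are on the log2 scale unless given as a fold. Days 3 and 7 were compared in a model of all 59 arrays. The number of arrays limits the precision. Correlations between arrays of a group ranged from 0.9824 to 0.9948, and no arrays were duplicates.

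Genes were named by rule: the 10 largest called differences in each direction whose exposed deviations did not overlap, genes called oppositely in the metals, up to 5 shared rises and 5 shared falls whose interval lay within 1.8-fold, the 4 largest members of each list past the adjusted p (2 where none passed), and every passing member of lists with 5 or fewer. The text holds some of them. Some further genes, among them Asns, Foxm1, Hspa1a, Lcn2, Mdm2, Myc and Srxn1, were chosen as background members of their pathways. Irak3 and Socs3 passed but were not among the 4 largest of their list. Hpgds, Isyna1 and Duoxa1 met none of these rules, are in no list, and were picked with their values known. The members, lists and genes were chosen with earlier results of these data known. Alternatives covered the controls, the fit, weights, normalisation, filters, a replicate block and leaving out each array. A call was counted as lost where the gene was no longer past the threshold under a setting. Promoters were read from a RefSeq table (GRCr8), 250 bases before the first listed start of each symbol. Scripts used Python 3.11.15 with pandas 2.3.3 and matplotlib 3.10.9, and were tested on simulated data.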

Additional observations from a re-analysis of the deposited data

Results flagged for a closer look

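Single livers stood apart from the rest of their group, judged by the gap to the nearest other liver over the range of the group, in 33 of 616 groups of values (5.36%), and chance alone flags about 1 in 20 groups. Cd exposed liver 5 was the highest of its group for Cd5l (9.46, nearest other 3.84), C1qa (8.61), C1qc (7.7), Adgre1 (5.87), Cd163 (5.86), Aldh1a1 (10.06), Nfkbiz (9.81) and Cdc20 (6.83), and the lowest for Lcn2 (11.96) and Il1rn (6.57). These Kupffer cell genes fell least in the Cd exposed liver with the lowest slope (0.65). That slope comes from deviations of the same liver, so it is not separate evidence. Cd exposed liver 2 was the lowest for Cebpd (7.91), Ccl2 (6.6) and Il1r1 (10.24). Cd exposed liver 1 was the highest for Atf3 (8.3) and Hsd17b2 (8.71), and liver 4 the lowest for Mrc1 (8.75).

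Cr exposed liver 5 was the lowest of its group for Cdkn1a (7.88, nearest other 9.55) and Gsta3 (7.22, nearest other 9.66). Cr exposed liver 2 was the lowest for Fkbp4 (8.68) and the highest for Hsd17b2 (9.97), and liver 4 the lowest for Cd5l (9.76). Among Cr controls, liver 1 was the lowest for Ccnd1 (8.28) and Csf1r (7.71) and the highest for Gstp3 (12.73), liver 2 the highest for Vxn (6.62), liver 4 the lowest for Cyp17a1 (6.88) and Siglec5 (3.61) and the highest for Pcsk5 (7.14), and liver 5 the highest for Nfe2l2 (11.12). Among Cd controls, liver 1 was the highest for Bhmt (12.96) and the lowest for Slc40a1 (10.43), liver 2 the lowest for Oas1a (5.59) and liver 3 the highest for Asl (10.28).

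Genes described in the text that moved past the adjusted p in opposite directions after the metals, with a difference that itself passed (limma), include 6 with these values: Akr7a3 (-2.76), Cyp17a1 (-2.75), Nfe2l2 (-1.26), Fkbp4 (-0.97), Sel1l (1.27) and Duoxa1 (1.63). Arg1 (-0.55) and Blvra (-0.85) did so with smaller differences.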

How the results depend on the processing

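Of 154 genes followed through up to 31 settings, 128 were past the threshold, 90 of them under every setting run and 38 not under at least 1, and 0 of the 128 changed sign. With 1 array left out, probe sets called for the difference numbered 454 to 979 (637 with all), 186 to 399 higher and 257 to 580 lower, and 1208 to 3664 at the adjusted p alone (2027 with all). The highest counts came without Cr exposed liver 5. The adjusted p alone gave 1208 without Cr exposed liver 1, 1228 without Cr exposed liver 4 and 1330 without Cd exposed liver 2. The Cd effect gave 585 to 771 calls and the Cr effect 614 to 1070. The change of the difference from day 1 to day 3 gave 359 to 861 and to day 7 293 to 601, with 861 and 601 without Cr exposed liver 5 of day 1, and 846 and 621 with array weights. At the adjusted p alone the difference gave 3970 in the fit of 59 arrays, 5466 against pooled controls, 5265 against controls of days 3 and 7 and 3898 with array weights, and the Cd effect 4712 and 4428 against those control sets (2685 with its own controls).

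The control difference, 4 probe sets called and 46 at the adjusted p alone, gave 1 to 7 and 10 to 85 with 1 array left out, 12 and 359 in the fit of 59 arrays, 13 and 232 with array weights, and 12 and 469 with no filter. It gave 0 and 0 with a mean signal of 6 or more, 1 and 3 with a signal of 6 or more in a group, and 7 calls after quantile normalisation again. The causes were not tested.

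Replicate numbers were not taken as pairs, a step that required every correlation to be above 0.1. The deviations of exposed arrays correlated with those of control arrays of the same number at -0.035 to 0.283 (mean 0.126, against -0.031 for other numbers), 5 of 9 were above 0.1, and 6 of 9 exposed arrays were closest to their own number. With the replicate block the difference gave 589 calls, the Cd effect 683, the Cr effect 794 and the control difference 3 (9 at the adjusted p alone), and the changes from day 1 to days 3 and 7 gave 528 and 390.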
